A study of Mus musculus with 12 samples.

Results

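Potassium channel subunits were examined in mouse side population cells from the extraocular muscles (EOM) and the tibialis anterior (TA). The members are all probe sets that the platform's probe-to-gene table assigns to a single symbol made of Kcn, a letter family and a number, without Kcnj8. They are 157 probe sets of 79 genes, out of 45037 probe sets and 18194 named genes on the array. Side population cells are sorted for their ability to pump out a DNA-binding dye. Per the labels, 6 separately isolated side population preparations of EOM and 6 of TA were hybridized, 1 preparation per array. No treatment is named for either group, and the labels used here do not give strain, sex or age. The comparison asks how the cells of a head muscle differ from those of a hind limb muscle.

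Potassium channels let potassium leave or enter the cell along its gradient and so set the resting membrane potential. Voltage-gated alpha subunits open on depolarization and are joined by auxiliary subunits that change their gating or traffic. Inward rectifiers, two-pore leak channels and calcium-activated channels hold the potential near rest or return it there. In vessels, channels of smooth muscle and endothelium take part in the control of tone, and in leukocytes they sustain calcium entry.

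Values are MAS5 signals on a linear scale, and log2 fold changes are EOM minus TA on log2(signal + 16). They carry the moderated standard error (SE), and adjusted p-values come from limma over all tested probe sets, with a threshold of 0.05. A signal is compared between groups within 1 probe set, not between probe sets. On 9 arrays the median signal of all probe sets ranged from 31.2 to 43.4; EOM 1 (87.2), TA 3 (69.6) and TA 5 (63.2) lay above that range. Their hybridization control probe sets averaged 12730 to 27310, against 3356 to 7554 on the other arrays. The 3' to 5' signal ratio of the beta-actin control probe sets reached 104 (EOM 1), 165 (TA 3) and 100 (TA 5). The other arrays had 5.27 to 68.6. For Gapdh the ratio was 9.88, 17.3 and 34.5 in the same order, against 4.92 to 24.5. The dye exporter Abcg2, which defines side population cells, had a signal of 650 ± 322 in EOM against 2668 ± 728 in TA (SD, n = 6) and fell by 2.23 on the log2 scale (limma adjusted p = 0.00200). The 20 endothelial markers had a summed signal of 2608 to 4546 on the EOM arrays and 23935 to 47838 on the TA arrays, and 18 of them fell. Of 18 pericyte and smooth muscle markers, 16 were tested and 12 fell, with sums of 6732 to 11820 in EOM and 22451 to 40290 in TA. Of 15 leukocyte and macrophage markers, 13 were tested and 9 fell, with sums of 583 to 7634 and 5410 to 22866. Among 13 fibroblast markers 7 rose, with sums of 154897 to 376286 in EOM and 98543 to 220183 in TA. Of 12 Schwann and neural markers, 1 rose and 1 fell, with sums of 12078 to 19225 and 7443 to 12026. No marker was at 0 on all arrays, which does not show detection, since Myf5 on EOM 2 had a signal of 0.4. Among 15 myogenic and myofibre markers 8 were tested and 1 fell, with sums of 187 to 1280 and 498 to 1430. The satellite cell factors Pax7 and Myf5 lay under the level filter and were not tested. In these bulk samples, fewer cells of a type and less RNA per cell cannot be told apart.

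Most potassium channel probe sets had low signals. Of the 157 probe sets, 58 (36.9%) passed the level filter, which keeps 60% of all probe sets, and 99 did not. The lowest mean over the 12 arrays among the tested members was 34.2. For 40 of the 79 genes no probe set was tested, and 39 genes had at least 1. By family, 25 of 65 voltage-gated alpha probe sets were tested, as were 6 of 23 auxiliary, 9 of 30 inward rectifier, 6 of 18 two-pore and 12 of 21 calcium-activated and Slo probe sets. The calcium-activated group includes the sodium-activated Slo relatives Kcnt1 and Kcnt2 and the sperm channel Kcnu1. EOM 1 was the highest of the EOM arrays in 47 of the 58 tested probe sets (81.0%), against 49.3% of all tested probe sets. Among the 52 that did not pass the test it was the highest in 45 (86.5%). What part this array's raised signal has in their lack of a call was not tested, and the counts of calls over all members are given with and without it.

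Of the 58 tested probe sets, 6 passed the threshold, each of a different gene: 2 rose in EOM and 4 fell. This is 3.45% higher and 6.90% lower, beside a background of 3.25% higher and 5.02% lower (8.27% in either direction) among all 27023 tested probe sets. In this main fit the members' shares are near the background, so the counts by themselves are not a result about potassium channels. With the dimmest 60% left out instead, 3 of 23 tested members rose (13.0%) and 4 fell (17.4%). Over all probe sets 935 rose and 1372 fell in that setting, beside 877 and 1357 in the main fit. With array weights 5.17% of the members rose and 17.2% fell, beside 2638 and 2897 of all probe sets. The nearness to the background therefore need not hold in other settings. In the main fit the median log2 fold change was -0.14 over the 58 tested probe sets and -0.03 over all tested probe sets. By family the median was -0.05 for voltage-gated alpha, -0.59 for auxiliary, -0.31 for inward rectifier, -0.24 for two-pore and -0.05 for calcium-activated and Slo subunits. The voltage-gated alpha subunit Kcna5, the calcium-activated Kcnn4, the two-pore Kcnk6 and the auxiliary Kcne4 fell, and the two-pore Kcnk5 and the voltage-gated Kcnc2 rose. In 4 of the 58 probe sets all EOM arrays lay below all TA arrays (background 3.55%). These were Kcna5, Kcne4, Kcnn4 and Kcnj13, of which Kcnj13 was not called, while the called Kcnk6 overlapped. In 1, that of Kcnk5, all EOM arrays lay above all TA arrays (background 1.91%). Without EOM 1, 3 of 57 tested members rose (5.26%) and 8 fell (14.0%), beside 7.95% and 8.37% of all probe sets. Without EOM 1, TA 3 and TA 5, 2 of 50 rose (4%) and 8 fell (16%), beside 8.47% and 9.11%. The number that fell was 2 without EOM 0, without EOM 2 or without TA 1, which is 3.39%, 3.23% and 3.39% of the tested members. Over all probe sets 1041, 1002 and 1113 fell in these settings, against 1357 with all arrays.

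**Figure D1:**
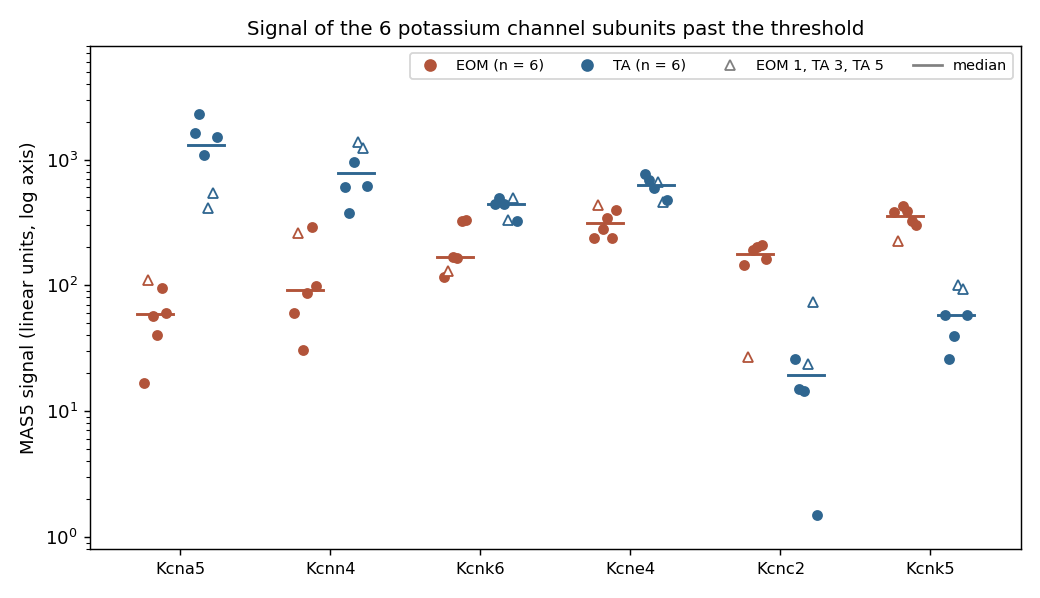
MAS5 signal (log axis) of the 6 potassium channel subunits that passed the threshold, 1 point per array, with EOM and TA side by side, a line at each group's median, and open triangles for EOM 1, TA 3 and TA 5. For Kcna5 the EOM arrays sit between 16.8 and 110 and the TA arrays between 409 and 2302, while for Kcnk5 the EOM arrays lie above all TA arrays; for Kcnc2 a single EOM array, EOM 1 at 26.9, lies among the TA values.

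Among voltage-gated alpha subunits, Kcna5 had the largest difference of all tested members. Kcna5 encodes a delayed rectifier known from atrial and vascular smooth muscle cells. Its signal was 16.8 on EOM 0, 110 on EOM 1, 56.8 on EOM 2, 40.2 on EOM 3, 95.1 on EOM 5 and 60.3 on EOM 6. The TA arrays gave 1620, 2302, 1090, 409, 541 and 1499 on arrays 0, 1, 2, 3, 5 and 6. Every EOM array was thus below every TA array, and the lowest TA values were those of TA 3 and TA 5. Mean signals of 63.2 ± 34.5 (EOM) against 1243 ± 713 (TA, both SD, n = 6) gave -3.89 ± 0.42 on the log2 scale (SE, limma adjusted p = 6.99e-06). The difference passed in all 24 alternatives that give a p, at -4.62 to -3.19. Smooth muscle, endothelial and leukocyte markers moved the same way, as given above, and their part in the fall of Kcna5 was not tested.

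Kcnc2, a rapidly gating channel known from fast-firing neurons, rose. Its signal was 144 on EOM 0, 26.9 on EOM 1, 192 on EOM 2, 200 on EOM 3, 209 on EOM 5 and 163 on EOM 6. The TA values were 25.8, 15.0, 14.4, 23.5, 73.4 and 1.5 on arrays 0, 1, 2, 3, 5 and 6. Only EOM 1 reached into the TA range, and TA 5 was the highest TA array. The log2 fold change was 2.05 ± 0.44 (SE, limma adjusted p = 0.00536), and 2.42 (limma adjusted p = 5.18e-05) without EOM 1. With an added constant of 64 it was 1.25 and with 1 it was 2.91, both past the threshold.

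The remaining voltage-gated alpha subunits did not pass with all arrays. The shaker-type subunits of axons, Kcna1 and Kcna2, gave estimates of -0.37 to -0.11 over 4 tested Kcna1 probe sets and -0.64 to 0.16 over 3 tested Kcna2 probe sets. For the brightest Kcna1 probe set the lowest, median and highest signals were 68.2, 142 and 429 in EOM and 119, 197 and 269 in TA, so the groups overlapped fully. Kcna3, known from lymphocytes and macrophages, was at -0.23 ± 0.52 (limma adjusted p = 0.889), with medians of 15.0 in EOM and 25.0 in TA. Kcnq1, the slow delayed rectifier of heart and epithelia, was at -1.25 ± 0.44 (limma adjusted p = 0.102). Its signals ran from 3.30 over a median of 9.35 to 29.2 in EOM and from 13.4 over 45.9 to 125 in TA. Without EOM 1 it passed (-1.39, limma adjusted p = 0.0321), as the only 1 of 10 fits with 1 array left out. The limma adjusted p reached 0.208 in these fits. Kcnd3, a transient outward channel, was at 0.34 ± 0.38 (limma adjusted p = 0.738), and EOM 1 was its highest EOM array at 242, where the others lay between 44.4 and 69.8. All 3 Kcnq5 probe sets, of a channel of neurons and smooth muscle, lay under the level filter. In the Kcnh group, the ether-a-go-go type, 6 probe sets of Kcnh1 and Kcnh3 were tested, with estimates of -0.05 to 0.52 and 0 calls, and 0 without EOM 1.

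Of the auxiliary subunits, Kcne4 fell. Kcne4 is a single-span protein that can inhibit several voltage-gated channels, among them those of the Kcnq1 and shaker types. Its signal was 236 on EOM 0, 431 on EOM 1, 280 on EOM 2, 341 on EOM 3, 238 on EOM 5 and 395 on EOM 6. TA signals were 768, 688, 590, 658, 462 and 480 on arrays 0, 1, 2, 3, 5 and 6. All EOM arrays were below all TA arrays, with the highest EOM value, 431, close under the lowest TA value, 462. Mean signals of 320 ± 82.3 (EOM) against 608 ± 120 (TA, both SD, n = 6) gave -0.91 ± 0.24 on the log2 scale (SE, limma adjusted p = 0.0252). The call was lost without EOM 0 (0.0750), EOM 2 (0.0672), EOM 5 (0.0655), TA 0 (0.0651) or TA 1 (0.0604), as limma adjusted p. It was also lost with quantile normalization (0.0625) and median centring (0.180), and without EOM 1 it was at -1.0 (limma adjusted p = 0.00359).

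Kcnab1, a cytoplasmic beta subunit that speeds inactivation, was at -1.07 ± 0.39 and did not pass (limma adjusted p = 0.110). Its signals ran from 17.8 over a median of 82.4 to 93.4 in EOM and from 63.0 over 187 to 303 in TA. Of the Kcnip calcium-binding partners, 4 probe sets of 3 genes were tested, with estimates of -0.65 to 0.12 and 0 calls. The Kcne3 probe set lay under the level filter.

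No inward rectifier passed with all arrays. Kcnj13, a weak rectifier known from epithelia, came closest, at -1.08 ± 0.34 (limma adjusted p = 0.0594). Its signals were 37.2, 35.5, 31.2, 29.6, 26.3 and 2.00 on EOM 0, 1, 2, 3, 5 and 6, and 71.4, 75.0, 42.7, 61.1, 82.1 and 95.4 on the TA arrays in the same order. The groups did not overlap, and without EOM 1 the probe set passed (-1.14, limma adjusted p = 0.0227). It passed in 1 of 12 fits with 1 array left out, with a limma adjusted p of up to 0.134. Kcnj10, a glial channel, was at 0.81 ± 0.50 (limma adjusted p = 0.426), with its highest EOM value on EOM 1. The Kcnj2 probe set, of the classical inward rectifier of endothelium and muscle, lay under the level filter, as did both probe sets of Kcnj5.

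The ATP-sensitive channel, which couples the membrane potential to metabolism, pairs a pore of Kcnj11 or Kcnj8 with a sulfonylurea receptor of Abcc8 or Abcc9. Kcnj11, described here because its tested probe set had a clear signal and therefore chosen after its values were seen, was 614, 1100, 501, 424, 687 and 497 on EOM 0, 1, 2, 3, 5 and 6. In TA it was 574, 844, 887, 1474, 801 and 500 in the same order, and the groups overlapped (-0.39 ± 0.30, SE, limma adjusted p = 0.549). Kcnj8, the vascular and pericyte pore, is outside the members; it was 188, 147, 270, 335, 843 and 442 in EOM and 926, 1043, 966, 1227, 1286 and 4878 in TA. It fell without overlap (-2.09 ± 0.43, SE, limma adjusted p = 0.00383), and TA 6 stood far above the other TA arrays; without TA 6 the value was -1.73 (limma adjusted p = 0.00615).

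The receptor Abcc9 had estimates above 0 in its 3 tested probe sets. Its brightest probe set had medians of 2671 in EOM and 1274 in TA and was at 0.94 ± 0.49 (SE, limma adjusted p = 0.314). A further probe set was at 1.87 ± 0.53 and passed (limma adjusted p = 0.0358), with 1804, 2046, 1996, 2925, 2151 and 2002 in EOM and 801, 756, 460, 166, 185 and 3710 in TA. All EOM arrays were above 5 of the 6 TA arrays, and TA 6 lay above them all, the same array that was high for Kcnj8. Without TA 6 the second probe set was at 2.40 (limma adjusted p = 6.72e-04), and leaving out EOM 0, 2, 3, 5 or 6 or TA 1, 2, 3 or 5 ended its call, with a limma adjusted p of up to 0.0990. The third tested probe set was at 0.44 (limma adjusted p = 0.645). Abcc8, the receptor of beta cells and neurons, was at -0.37 ± 0.47 (limma adjusted p = 0.775).

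**Figure D2:**
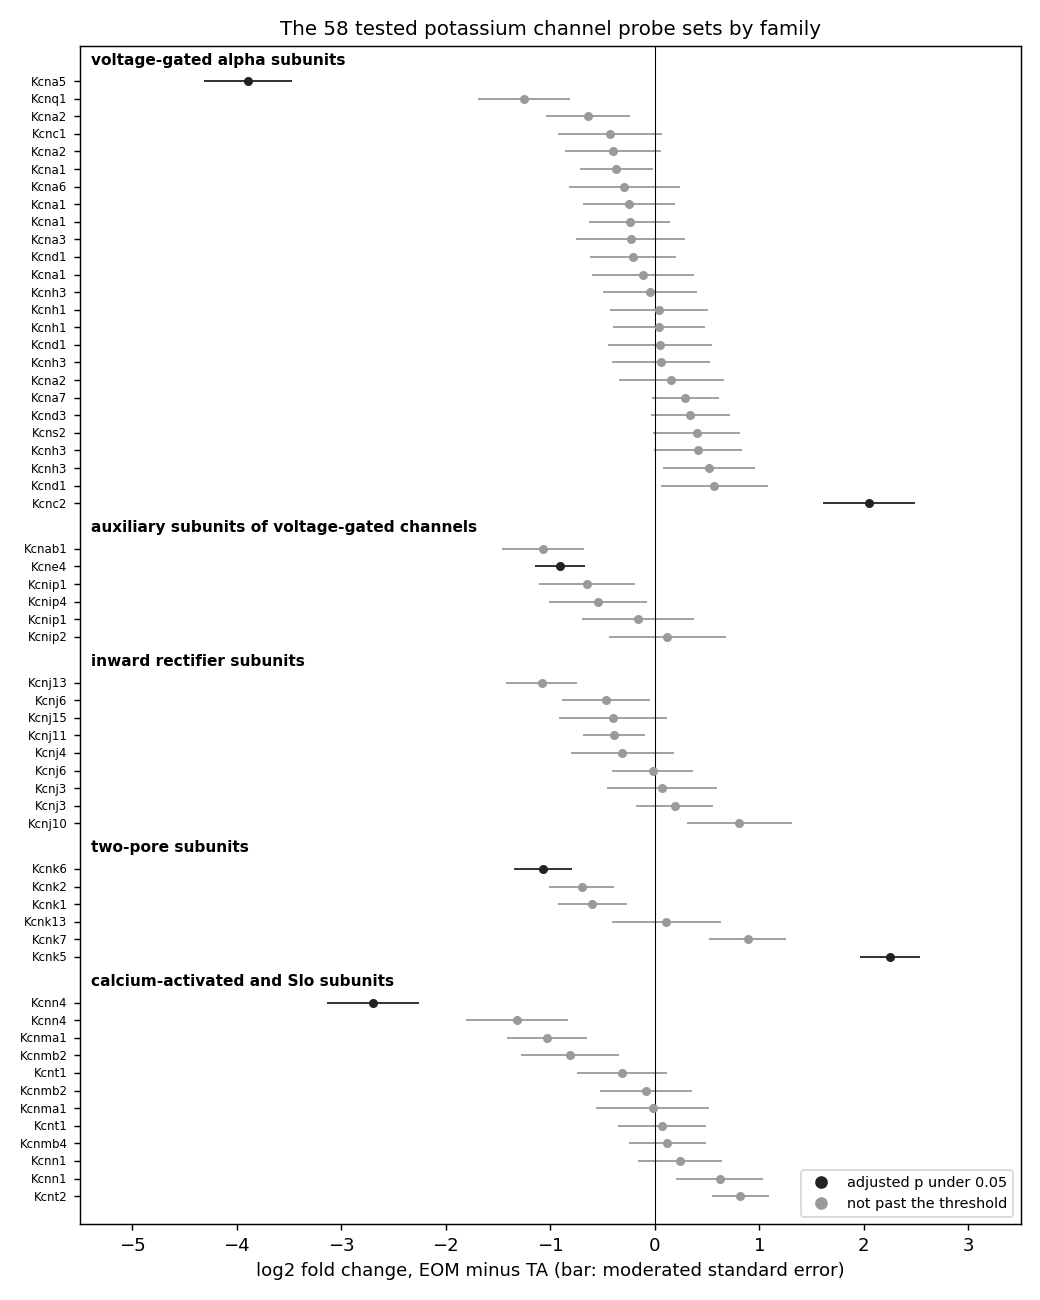
Log2 fold change (EOM minus TA, bars for the moderated standard error) of the 58 tested potassium channel probe sets, grouped by family, with probe sets past the threshold in black and the others in grey. Most estimates lie within 1 unit of 0, Kcna5 (-3.89) and Kcnn4 (-2.70) lie far to the left, and Kcnk5 (2.25) and Kcnc2 (2.05) far to the right.

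The two-pore family had a member called in each direction. Kcnk5, an acid-sensitive and alkaline-activated leak channel known from kidney and lymphocytes, rose. Its signal was 383 on EOM 0, 223 on EOM 1, 430 on EOM 2, 390 on EOM 3, 324 on EOM 5 and 302 on EOM 6. In TA it was 58, 25.7, 39.2, 100, 93.3 and 58.5 on arrays 0, 1, 2, 3, 5 and 6. The lowest EOM value, on EOM 1, was above the highest TA value, on TA 3. Mean signals of 342 ± 74.4 (EOM) against 62.5 ± 29.3 (TA, both SD, n = 6) gave 2.25 ± 0.29 on the log2 scale (SE, limma adjusted p = 4.70e-05). It passed in all 24 alternatives that give a p, at 1.69 to 2.67. The other Kcnk5 probe set was not tested; its means were 25.4 in EOM and 27.7 in TA. Of 13 fibroblast markers 7 rose as Kcnk5 did, and the sums of that list overlapped between the groups. The Schwann and neural sums did not overlap, but the lowest EOM sum, 12078, was barely above the highest TA sum, 12026. On EOM 1 the sum was mostly Mbp, at 15306, against 382 to 3046 on the other EOM arrays and 1002 to 2725 in TA. Of these 12 markers, 1 rose and 1 fell. The part of either list in the rise of Kcnk5 was not tested.

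Kcnk6, a weakly rectifying leak channel, fell. It was 117 on EOM 0, 129 on EOM 1, 168 on EOM 2, 166 on EOM 3, 322 on EOM 5 and 328 on EOM 6. In TA it was 445, 490, 443, 330, 490 and 326 on arrays 0, 1, 2, 3, 5 and 6. The groups touched, since EOM 6 was just above TA 6. Mean signals of 205 ± 95.3 (EOM) against 421 ± 74.5 (TA, both SD, n = 6) gave -1.07 ± 0.28 on the log2 scale (SE, limma adjusted p = 0.0236). The call was lost without EOM 0 (0.0720), EOM 2 (0.0607), EOM 3 (0.0591), TA 1 (0.0573) or TA 5 (0.0548), and with median centring (0.194), as limma adjusted p.

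The other 4 tested two-pore probe sets did not pass. Kcnk2, a channel opened by stretch and lipids, was at -0.70 ± 0.31 (limma adjusted p = 0.202), with a lowest, median and highest signal of 34.0, 65.1 and 114 in EOM and 73.2, 112 and 198 in TA. Kcnk7, a relative for which no current is established, was at 0.89 ± 0.37 (limma adjusted p = 0.169). Kcnk1 was at -0.60 (limma adjusted p = 0.358) and Kcnk13 at 0.11 (limma adjusted p = 0.955). None of the 3 probe sets of Kcnk3, a leak channel of pulmonary artery muscle, passed the level filter.

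Of the calcium-activated channels, Kcnn4 fell. Kcnn4 encodes the intermediate-conductance channel, which is opened by calcium through calmodulin and is known from endothelium, red cells and activated lymphocytes. The brighter of its tested probe sets was 60.6 on EOM 0, 259 on EOM 1, 30.5 on EOM 2, 86.2 on EOM 3, 289 on EOM 5 and 97.8 on EOM 6. In TA it was 606, 374, 956, 1382, 1225 and 617 on arrays 0, 1, 2, 3, 5 and 6. No EOM array reached the lowest TA array, TA 1. Mean signals of 137 ± 109 (EOM) against 860 ± 394 (TA, both SD, n = 6) gave -2.70 ± 0.44 on the log2 scale (SE, limma adjusted p = 4.59e-04), and it passed in all 24 alternatives that give a p. The other tested probe set was at -1.32 ± 0.49 (limma adjusted p = 0.124). In it EOM 1 was at 151 and the other EOM arrays at 3.60 to 26.0, against 20.8 to 184 in TA, and without EOM 1 it passed too (-1.73, limma adjusted p = 0.00476). Most endothelial and leukocyte markers also were lower in EOM, as given above. Whether they followed Kcnn4 from array to array, and their part in its fall, was not tested.

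The large-conductance channel of smooth muscle did not pass with all arrays. Its pore Kcnma1 was at -1.03 ± 0.38 in the brightest of 5 probe sets (limma adjusted p = 0.112), with 27.0, 125, 33.4, 24.8, 65.8 and 49.5 on EOM 0, 1, 2, 3, 5 and 6 and 235, 180, 50.2, 95.8, 115 and 83.1 on the TA arrays. EOM 1 was the highest EOM array there, and without it the probe set passed (-1.26, limma adjusted p = 0.0141). This was 1 of 12 fits with 1 array left out, and none of the others passed, with a limma adjusted p of up to 0.241. The second tested probe set was at -0.02 with all arrays. Both probe sets of Kcnmb1, its smooth muscle beta subunit, lay under the level filter, with means of 27.5 and 7.43 in EOM and 31.9 and 24.3 in TA. The neuronal beta subunits Kcnmb2 and Kcnmb4 gave -0.81 to 0.12 over 3 tested probe sets, with 0 calls. Kcnn3, a small-conductance channel of endothelium and neurons, was not tested, and Kcnn1 was at 0.24 and 0.62 in its probe sets, with 0 calls.

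Kcnt2, a sodium-activated relative, was at 0.82 ± 0.27 (limma adjusted p = 0.0707). Its signals were 250, 335, 388, 398, 566 and 346 on EOM 0, 1, 2, 3, 5 and 6 and 291, 210, 300, 133, 168 and 163 on the TA arrays. Only EOM 0 lay inside the TA range, and without EOM 1 the probe set passed (0.85, limma adjusted p = 0.0311). That was the only 1 of 12 fits with 1 array left out to pass, and the limma adjusted p reached 0.167. The probe sets of Kcnt1 gave -0.31 and 0.07.

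Promoter sequence was set beside the expression values for the members that passed the threshold and whose groups did not overlap. These are Kcna5, Kcnn4 and Kcne4, which fell, and Kcnk5, which rose. The 250 bases before the transcription start were taken from RefSeq (GRCm38.p6), where 60 of the 79 member genes and 5 of the 6 called genes had a window; Kcnk6 is named only. The windows lie at chr6:126535556-126535805 (minus strand) for Kcna5, chr7:24370013-24370262 (plus strand) for Kcnn4, chr1:78816661-78816910 (plus strand) for Kcne4 and chr14:20181783-20182032 (minus strand) for Kcnk5. Capitals mark matches to any of the motifs searched on both strands.
Kcna5: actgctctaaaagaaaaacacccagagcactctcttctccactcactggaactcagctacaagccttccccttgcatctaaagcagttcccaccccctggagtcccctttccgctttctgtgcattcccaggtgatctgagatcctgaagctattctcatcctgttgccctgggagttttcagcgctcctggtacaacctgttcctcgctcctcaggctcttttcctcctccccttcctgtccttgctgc
Kcnn4: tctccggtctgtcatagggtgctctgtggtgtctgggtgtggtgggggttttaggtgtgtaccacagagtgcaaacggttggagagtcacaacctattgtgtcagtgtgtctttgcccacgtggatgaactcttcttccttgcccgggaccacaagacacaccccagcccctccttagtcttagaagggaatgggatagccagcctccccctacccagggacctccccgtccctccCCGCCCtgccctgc
Kcne4: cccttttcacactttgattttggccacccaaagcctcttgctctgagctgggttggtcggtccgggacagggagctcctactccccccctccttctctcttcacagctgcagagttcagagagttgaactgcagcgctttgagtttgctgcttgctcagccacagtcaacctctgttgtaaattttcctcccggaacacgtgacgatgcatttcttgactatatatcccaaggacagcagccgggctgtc
Kcnk5: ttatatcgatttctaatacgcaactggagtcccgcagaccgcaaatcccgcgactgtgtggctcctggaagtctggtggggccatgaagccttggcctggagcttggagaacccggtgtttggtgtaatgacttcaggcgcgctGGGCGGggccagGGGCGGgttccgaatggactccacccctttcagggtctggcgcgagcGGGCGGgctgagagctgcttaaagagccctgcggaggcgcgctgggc

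The search covered the letters TATAAA for the TATA box and, for the GC box bound by Sp factors, the letters GGGCGG. For factors of the ETS family it used CGGAAG, and for those of the GATA family AGATAA. It also used TGANTCA, to which AP-1 binds, and the CArG box of serum response factor. The Kcnk5 window had 3 GC boxes, 19 CG dinucleotides and 62.8% G and C. The Kcnn4 window had 1 GC box, 6 CG dinucleotides and 58.8% G and C. The windows of Kcna5 (3 CG dinucleotides, 53.2% G and C) and Kcne4 (7 and 53.2%) held none of the motifs, which says only that these letters are not in these 250 bases. Of 32851 windows of this length, 32.7% held a GC box, 12.4% a TATA box, 13.6% the ETS core, 9.99% the GATA core, 6.75% the AP-1 site and 1.47% a CArG box, and the median content of G and C was 52.4%. Among the 85 windows of member genes, 44.7% held a GC box and 3.53% a TATA box, and the median content of G and C was 58.8%.

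Lists of genes that work with potassium channels were read against the background of 3.25% higher and 5.02% lower among all tested probe sets, and with so few tested genes a list's counts are a description. Of 19 channel partners listed, 14 had a named probe set, 9 were tested and 1 fell, Kcnj8. Of the sodium-potassium pump and the cation-chloride cotransporters, 17 were listed and 11 tested, of which 1 rose and 4 fell, counting the brightest tested probe set of each gene.

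Atp1b1, the pump's widely expressed beta subunit, was 1768, 530, 1385, 1386, 1118 and 1213 on EOM 0, 1, 2, 3, 5 and 6 and 258, 215, 235, 324, 217 and 81.3 on the TA arrays. It rose without overlap (2.40 ± 0.33, SE, limma adjusted p = 8.85e-05), and the other 4 tested probe sets were at 0.33 to 2.15, of which 2 passed. Atp1b2, the beta subunit known from glia and neurons, went the other way, from 237 ± 98.7 in TA to 66.9 ± 35.2 in EOM (SD, n = 6; -1.63 ± 0.34, SE, limma adjusted p = 0.00398), with EOM 1 at 121 above TA 2 at 116. Its further probe set was at 0.51 (limma adjusted p = 0.633). Fxyd5, a small modulator of the pump, fell as well (-1.63 ± 0.34, SE, limma adjusted p = 0.00397), with EOM 1 at 214 just above TA 2 at 213.

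The potassium-chloride cotransporters Slc12a7 and Slc12a5, which carry both ions out of the cell, fell. Slc12a7 was 174, 44.0, 166, 186, 232 and 127 in EOM and 620, 753, 932, 740, 1238 and 1286 in TA (-2.54 ± 0.33, SE, limma adjusted p = 4.47e-05), and its second probe set fell too (-1.63, limma adjusted p = 0.0110). Slc12a5, the neuronal form, averaged 49.8 ± 14.3 in EOM against 293 ± 81.2 in TA (SD, n = 6; -2.21 ± 0.27, SE, limma adjusted p = 2.54e-05). In both, all EOM arrays were below all TA arrays. Slc12a4, the widely expressed form, was at 0.29 ± 0.24 (limma adjusted p = 0.587), and the inward-carrying Slc12a2 at 0.22 ± 0.24 (limma adjusted p = 0.714).

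Voltage-gated calcium channels, which potassium channels oppose, gave 1 higher and 1 lower of 14 tested genes (18 listed), beside the same 3.25% and 5.02%. Cacna1h, a low-threshold pore known from smooth muscle and sensory neurons, fell from 184 ± 60.9 in TA to 33.3 ± 22.1 in EOM (SD, n = 6; -2.09 ± 0.33, SE, limma adjusted p = 3.90e-04), without overlap. Cacna2d3, an auxiliary alpha2delta-type subunit, rose from 16.8 ± 11 to 69.9 ± 27.0 (SD, n = 6; 1.42 ± 0.36, SE, limma adjusted p = 0.0179). Cacna1c, the main pore of vascular smooth muscle, was at -0.24 ± 0.41 (limma adjusted p = 0.847) in its brighter tested probe set. The other was at -0.79 ± 0.39 (limma adjusted p = 0.285), with medians of 30.2 in EOM and 82.7 in TA.

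**Figure D3:**
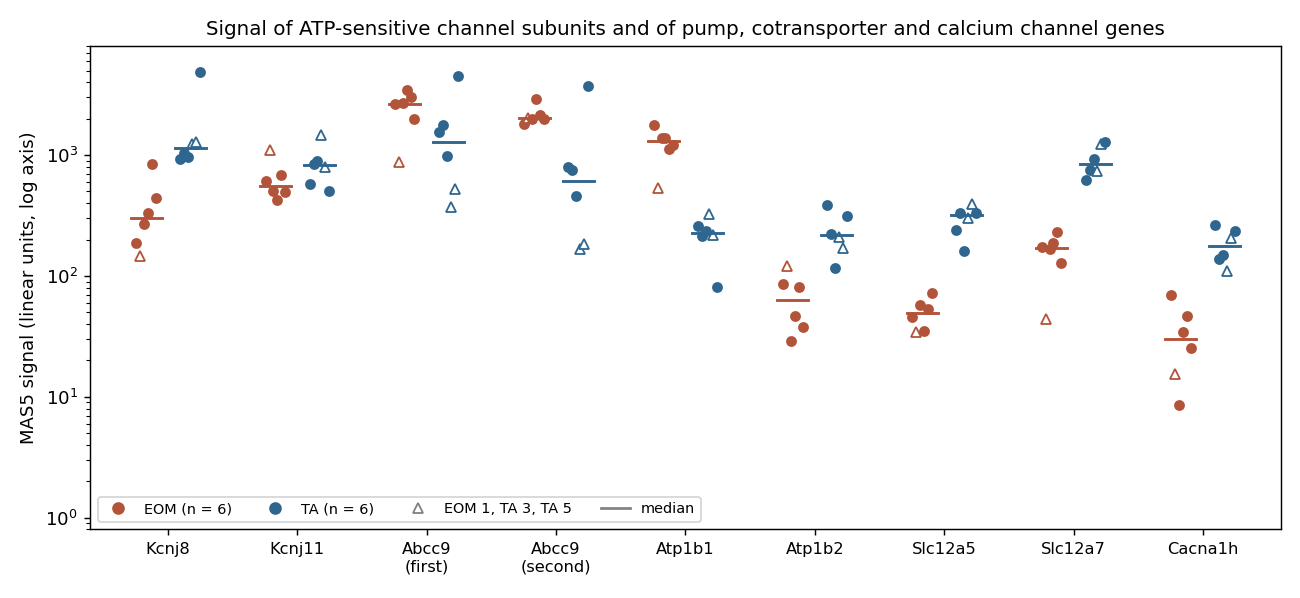
MAS5 signal (log axis) by array of Kcnj8, Kcnj11, the first and second tested probe sets of Abcc9, the pump subunits Atp1b1 and Atp1b2, the cotransporters Slc12a5 and Slc12a7 and the calcium channel Cacna1h, with lines at group medians and open triangles for EOM 1, TA 3 and TA 5. Kcnj8 lies lower and Atp1b1 higher in EOM without overlap, Kcnj11 overlaps between the groups, and TA 6 is the highest array for Kcnj8 (4878) and for both Abcc9 probe sets.

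**Figure D4:**
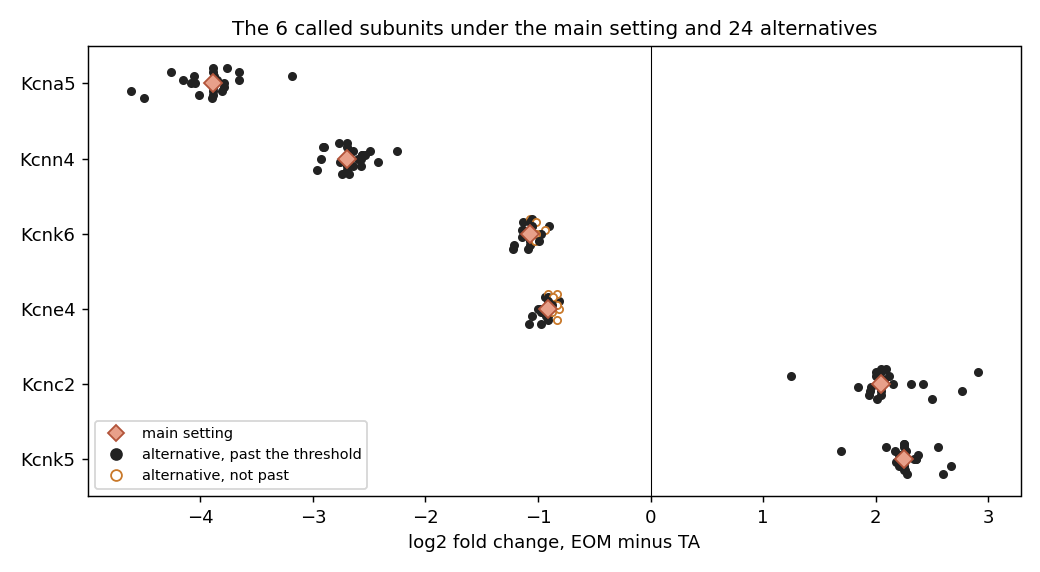
Log2 fold change (EOM minus TA) of the 6 called potassium channel subunits under the main setting (diamond) and each alternative that gives a p (circles, filled where past the threshold and open where not). Kcna5, Kcnn4, Kcnc2 and Kcnk5 were past the threshold in all 24, and Kcnk6 and Kcne4 have open circles at values close to their main ones.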

How the data were processed

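Total RNA of 12 side population preparations was amplified in a 2-cycle labelling protocol and hybridized to Affymetrix mouse arrays, per the labels' protocols. The deposited values are linear signal intensities, which the authors made with MAS5, per the submitters' processing notes; in the values, all arrays have nearly the same trimmed mean. Of 45101 probe sets, 64 controls were left out. Symbols come from the platform annotation, which can be old.

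Signals were taken as log2(signal + 16). The 27023 probe sets left after dropping the dimmest 40% by mean signal were fitted with limma 3.58.1 in R 4.3.3 (intensity trend, two-sided, Benjamini-Hochberg over all of them). A gene is led by its tested probe set with the highest mean. In simulated data for EOM against TA with 27023 probe sets, 17.2%, 69.2% and 93.9% of changes of 1, 2 and 3 log2 units were recovered. Only 64, 65 and 66 probe sets were changed by these amounts, where the real comparison called 2234. The shares therefore need not hold for the real arrays. The number of arrays, 6 per group, limits the precision.

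Named genes are the Kcn genes past the threshold, the 2 largest changes per family that did not pass, 16 genes of interest, and members of the partner lists past the threshold. Other genes named without passing the test were chosen after their values were seen. The members and lists were chosen with earlier results of these data known. Alternatives changed the constant added (1 or 64), the scaling (quantile or median), the filter (none or 60%) and the variance model. They also used array weights, a block on replicate number or the 3' to 5' ratio of control probe sets as a covariate. Further ones changed how a gene's probe sets are combined and the arrays included. Promoter sequences are from RefSeq.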

Additional observations from a re-analysis of the deposited data

Results flagged for a closer look

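In 6 of the named probe sets, 1 array stood apart from the other 5 of its group by Dixon's test at the 95% level, out of 62 groups examined; chance gives this in about 1 of 20 groups. Kcnc2 was at 26.9 on EOM 1, where the other EOM arrays were at 144 to 209. Kcnd3 was at 242 on EOM 1, against 44.4 to 69.8. Kcnj13 was at 2.00 on EOM 6, against 26.3 to 37.2. Kcnj8 was at 4878 on TA 6, against 926 to 1286, and Atp1b1 at 81.3 on the same array, against 215 to 324. The Abcc9 probe set that passed the threshold was at 2925 on EOM 3, against 1804 to 2151.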

How the results depend on the processing

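The number of potassium channel probe sets that rose was 2 or 3 in all alternatives. Of 58 tested members, 4 fell with all arrays, 2 with median centring (3.45%) and 10 with array weights (17.2%). Without EOM 1, TA 3 and TA 5, 8 of 50 fell, and with 1 array left out 2 to 8 of 55 to 62 fell. With median centring, with array weights and without EOM 1, TA 3 and TA 5, the number over all probe sets moved the same way, as given below. Same-numbered arrays deviated together at r = -0.325 to 0.162. Array-wide differences such as those of EOM 1, TA 3 and TA 5 enter these values. They therefore cannot decide whether the numbers pair the arrays, and the main fit treats the arrays as unpaired. With the replicate number as a fixed block, 2 rose and 2 fell, with Kcne4 at 0.0792 and Kcnk6 at 0.0644 (limma adjusted p); as a random block, 2 rose and 4 fell. Over all probe sets 877 rose and 1357 fell, against 568 and 900 with median centring, 2638 and 2897 with array weights, 2147 and 2261 without EOM 1, 571 and 1002 without EOM 2, and 2290 and 2461 without EOM 1, TA 3 and TA 5. Of the 31 probe sets followed across the alternatives, only Kcna3 turned its direction. It went from -0.23 to 0.01 when the 3' to 5' ratio was added as a covariate, and the cause was not tested. Kcnj8 was at 0.0509 with median centring and Cacna2d3 at 0.0593 with the replicate block (limma adjusted p). The median of all tested probe sets was -0.03, 0.03 with quantile normalization and 0.07 with median centring. Low signal limits the 99 untested member probe sets. Without the filter, 2 rose (1.27%) and 4 fell (2.55%) among all 157, beside 719 and 1172 of all 45037 probe sets.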
